A study of Mus musculus with 12 samples.

Results

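Complement component C3, the alternative pathway that feeds on it, and the regulators and receptors that act on its fragments were followed in the RPE of WT and rd6 mice through 9 genes: *C3*, *Cfb*, *Cfd*, *Cfp*, *Cfi*, *Cd55*, *Cd59a*, *C3ar1* and *C5ar1*. These 9 of the 28591 genes in the table were taken by gene symbol, whatever their level. RNA sequencing covered 6 WT mice and 6 mice homozygous for the *Mfrp* rd6 allele (Mfrp rd6/rd6), a model of retinal degeneration that lacks functional membrane frizzled-related protein. All mice were 1 mo old, each library came from 1 mouse with the RPE of both eyes combined, and no other treatment or allele is named. The study lists C57BL/6J mice and the Mfrp rd6/J strain of the Jackson Laboratory, and the labels do not say whether WT and rd6 mice were littermates, so that allele and strain cannot be told apart.

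C3 is the protein on which all routes of complement activation converge. In the alternative pathway, C3b binds factor B, which factor D cleaves and properdin stabilizes, and the resulting convertase cleaves more C3. Factor I and membrane proteins such as CD55 and CD59 restrain the cascade, while the fragments C3a and C5a act on myeloid cells through their own receptors. In the eye, RPE, choroid and resident microglia are all known sources of complement transcripts, and these bulk libraries cannot tell them apart.

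*Cfi* had few reads in WT RPE and was about 104-fold higher in rd6 RPE. *C3ar1*, the C3a receptor, rose 4.26-fold and *C3* itself rose 2.10-fold. *Cfp*, which encodes properdin, fell by 0.67 on the log2 scale, a change past the test but under the 1.75-fold limit. The other members tested, *Cfd*, *Cd55*, *Cd59a* and *C5ar1*, did not pass the test, and *Cfb* had too few reads to be tested. A gene was called when limma gave an adjusted p-value (q) below 0.05 and the change was at least 1.75-fold, on log2(normalized count + 1). By this rule 3 of the 8 members tested were called higher, where 4.69% of all 17768 tested genes were, and 0 were called lower, where 2.12% of all genes were. At q alone 3 members were higher and 1 was lower, against 11.4% and 11.6% of all genes. In 2 members (*Cfi* and *C3ar1*) the rd6 libraries all exceeded the WT libraries, as in 5.77% of all genes, and in 0 members they all fell short of them, as in 5.67%. The median log2 fold change of the 8 tested members was 0.56, and that of all tested genes was 0.0049. *Cfd*, 1 of these 8, passed the filter on low values only through its rd6 mean.

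**Figure D1:**
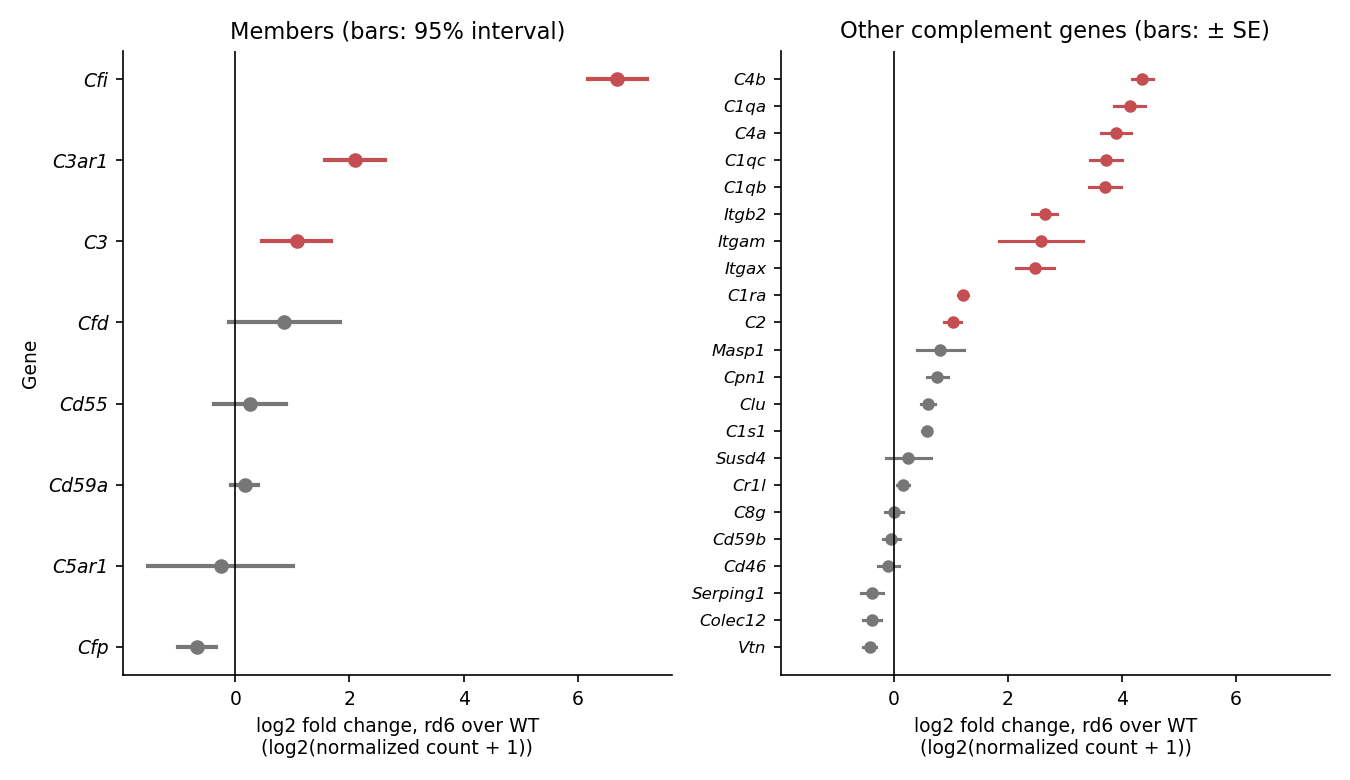
Log2 fold change of rd6 against WT (x axis) for the 8 tested members, with bars for the 95% confidence interval, and beside them for the 22 other complement genes tested, with bars for ± SE. Red marks genes called higher. *Cfi* stands at 6.69, far from *C3ar1* at 2.09 and *C3* at 1.07, and the intervals of *Cfd*, *Cd55*, *Cd59a* and *C5ar1* span 0.

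The libraries held 28907262 to 33152725 reads on genes, at which 3 reads, taken as the floor, are worth 2.71 to 3.32 normalized counts, and the floor covers counting error only. *Mfrp* itself ran from 30132 to 45442 normalized counts in WT and from 20442 to 29732 in rd6 RPE (log2 fold change -0.63, limma q = 0.00126), with overlapping genes at its locus. The 10 RPE markers summed to 442473 to 607555 normalized counts in WT and 324643 to 451603 in rd6, most of it from *Rpe65*, *Rlbp1* and *Lrat*, while *Best1* was low (means of 19.2 and 29.2). Transcripts of other tissue were present too. Those of the surface epithelium keratins *Krt5*, *Krt14* and *Krt12* summed to between 3.1 and 6235 normalized counts in 9 libraries, but to 139703 in WT replicate 4, 29404 in rd6 replicate 1 and 41600 in rd6 replicate 5. WT replicate 4 also deviated most from its group mean over all genes. The log2 fold changes of the tested members are given with and without these 3 libraries. In bulk RNA, a smaller number of cells of one type and less RNA per cell cannot be told apart.

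*C3* (ENSMUSG00000024164) spans 57203970 to 57228136 on the - strand of chromosome 17 (GRCm38). It had 45.4 normalized counts in the lowest WT library, 76.7 at the median and 197.2 in the highest. In rd6 RPE the lowest library had 144.4, the median was 169.2 and the highest had 195.1. The rd6 libraries were tightly grouped and stood above 5 of the 6 WT libraries, while WT replicate 4 was above all of them. On the log2 scale the difference was 1.07 (SE 0.28, limma q = 0.0144). Without WT replicate 4 it was 1.33 (limma q = 0.000138), and without the 3 libraries rich in keratins it was 1.37 (limma q = 0.000668), when 45.4 to 87.8 in WT faced 156.1 to 195.1 in rd6 with no overlap. Per length, *C3* was at 1.39 TPM in WT and 2.50 in rd6, above 18.5% and 26.8% of the tested genes. At the level of the whole tissue it ranked low in both genotypes.

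The promoter of *C3*, shown because transcription of this gene is known to respond to inflammatory factors such as C/EBP, holds 1 match to the C/EBP letters TTGCNNAA (searched on both strands), which begins 45 bases before the start. The window is chr17:57228137-57228386, - strand, the 250 bases before the RefSeq start (GRCm38.p6), with the match in capitals. The same letters occur in 10.8% of the 32851 mouse promoters of the RefSeq table, searched over 250 bases before and 50 after the start like that of *C3*, and a match is no proof of a site.
C3: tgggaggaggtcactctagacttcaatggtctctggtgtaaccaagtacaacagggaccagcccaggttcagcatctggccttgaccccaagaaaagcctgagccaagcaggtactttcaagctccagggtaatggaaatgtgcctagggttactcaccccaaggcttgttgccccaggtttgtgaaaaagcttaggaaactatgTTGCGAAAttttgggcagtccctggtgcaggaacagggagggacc

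Of the 3 genes that start and sustain the alternative pathway, *Cfb* was not tested, *Cfd* did not pass and *Cfp* fell at q alone, as did 11.6% of all tested genes. *Cfb*, which encodes the serine protease subunit of the convertase, had few counted reads, 1 to 5 in WT and 2 to 6 in rd6 libraries (1.1 to 5.2 and 1.8 to 5.8 normalized counts). A difference was not detectable with so few reads, and without the filter on low values its log2 fold change was 0.35 (limma q = 0.578). Of the 2825 exon bases of *Cfb* (ENSMUSG00000090231, chromosome 17, 34856374 to 34862518, - strand), 79.5% are shared with a readthrough gene of *C2* and *Cfb* on the same strand, and 579 are its own. Reads in the shared part may not have been counted, so that the level of *Cfb* may be understated and its few reads do not show near absence.

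*Cfd* (ENSMUSG00000061780, chromosome 10, 79890853 to 79892655, + strand), which encodes factor D, the protease that cleaves factor B, is best known as a product of fat cells. It had 4.1, 6.8 and 13.5 normalized counts at the lowest, median and highest WT library, and 3.8, 13.1 and 31.0 in rd6. Both groups overlapped, and rd6 replicate 4 was the lowest of all 12 libraries. The log2 fold change was 0.86 with a 95% interval from -0.11 to 1.83 (limma q = 0.194). Without rd6 replicate 4 it was 1.18 (limma q = 0.0440), and without the 3 keratin-rich libraries 0.73 (limma q = 0.337). *Cfd* averaged 7.7 normalized counts in WT and 16.2 in rd6. It thus passed the filter of 10 only through rd6, and these values are a description. None of the 5 adipocyte markers reached the filter, with at most 9 reads of *Adipoq* and 17 of *Retn* in any library. Their sums were of the size of *Cfd*, 15.8 to 31.1 normalized counts in WT and 9.0 to 32.0 in rd6. WT replicate 3 (31.1) and rd6 replicate 1 (32.0) had the highest sums and the most *Cfd* of their groups. In rd6 replicate 4 the sum was 20.1, with the least *Cfd*. The part of fat cells in *Cfd* was not tested.

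*Cfp* (ENSMUSG00000001128, chromosome X, 20925454 to 20931555, - strand) encodes properdin, the only known positive regulator of the pathway, which holds the convertase together. It had 95.2, 129.4 and 153.8 normalized counts at the lowest, median and highest WT library, against 65.6, 80.9 and 108.5 in rd6. In 5 of the 6 rd6 libraries *Cfp* was below the lowest WT library, and rd6 replicate 1 overlapped with WT. The change was -0.67 on the log2 scale (SE 0.15, limma q = 0.00759), a decrease of 1.59-fold, which is under the 1.75-fold limit. Without the 3 libraries rich in keratins the change was -0.82 (limma q = 0.00535) and passed both limits. Of the 4 members past the test at q, it was the 1 that fell.

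**Figure D2:**
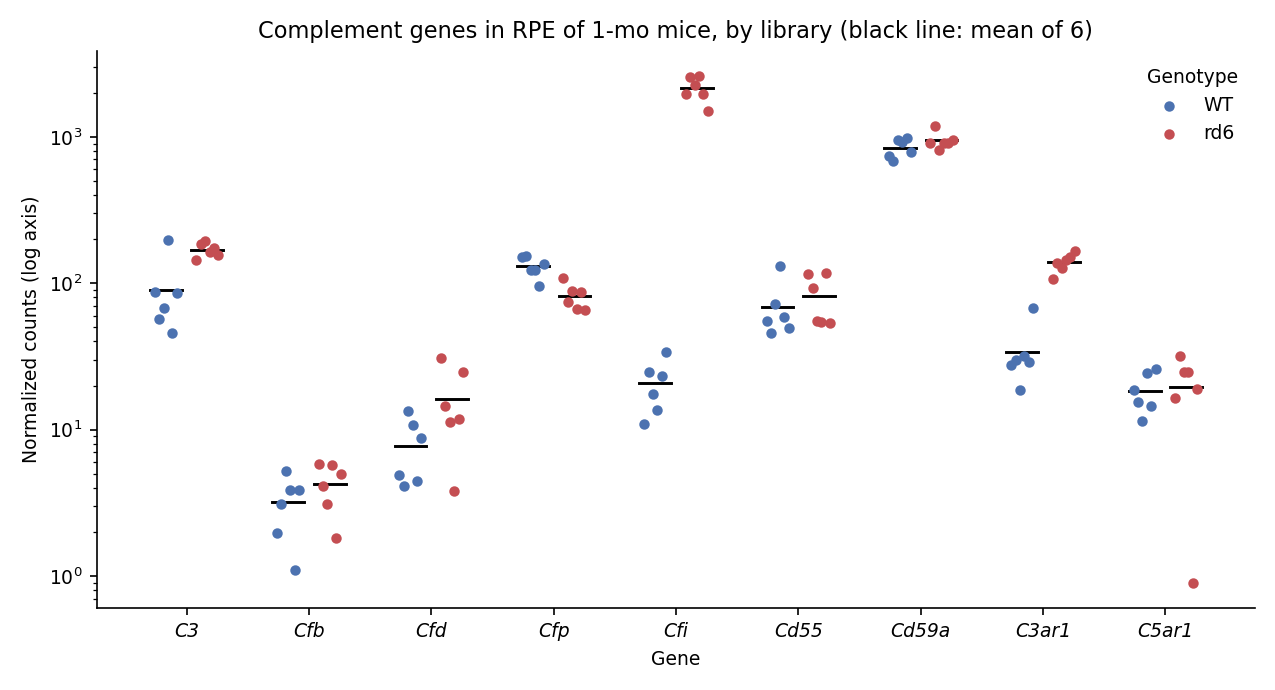
Normalized counts (y axis, log scale) of the 9 members in each of the 6 WT and 6 rd6 libraries, with points for libraries and a black line for the mean of 6. The groups are apart in *Cfi* and *C3ar1*, WT replicate 4 stands just above the highest rd6 library in *C3*, and *C5ar1* has 1 rd6 library near 1 read.

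*Cfi* (ENSMUSG00000058952, chromosome 3, 129835884 to 129875332, + strand) encodes factor I, the plasma protease that cuts C3b and C4b with the help of cofactors and so ends convertase formation. Its 6 WT libraries had 10.8 to 33.8 normalized counts (median 20.4), and its 6 rd6 libraries 1495 to 2600 (median 2112). The lowest rd6 library was far above the highest WT library. This is a log2 fold change of 6.69 (SE 0.24, 95% interval 6.18 to 7.21, limma q = 3.9e-09), the 2nd largest rise of all 17768 tested genes. Per length *Cfi* went from 0.72 TPM, above 10.6% of the tested genes, to 73.3 TPM, above 90.7%. Without the keratin-rich libraries the log2 fold change was 6.65.

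Ordered by level per length in WT, the members ran from *Cd59a* (36.4 TPM) and *Cfp* (5.90) through *C3* (1.39 ± 0.91, SD, n = 6) and *Cd55* (1.12 ± 0.56) to *Cfi* (0.72 ± 0.27), *Cfd* (0.66 ± 0.33), *C3ar1* (0.62 ± 0.29) and *C5ar1* (0.56 ± 0.18). *Cfb* was listed last (0.089), a value over all its exon bases that may be understated. From *C3* to *Cd55*, and from *Cfi* to *C5ar1*, neighbours lay within each other's SD. In rd6 the order was *Cfi* (73.3 ± 15.9 TPM, SD, n = 6), *Cd59a* (39.5 ± 5.76), *Cfp* (3.59 ± 0.85), *C3* (2.50 ± 0.32), *C3ar1* (2.43 ± 0.26), *Cfd* (1.33 ± 0.83), *Cd55* (1.29 ± 0.52), *C5ar1* (0.58 ± 0.32) and, with the same limit, *Cfb* (0.11). *C3* and *C3ar1*, and *Cfd* and *Cd55*, lay within each other's SD. The regulator *Cfi* thus stood among *Cfd*, *C3ar1* and *C5ar1* in WT, with their order not told apart, and first in rd6.

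Because factor I acts on C3b, the balance of both transcripts was compared. The log2 ratio of *Cfi* to *C3* averaged -1.99 (SD 1.12) over the WT and 3.63 (SD 0.26) over the rd6 libraries (n = 6 each), a difference of 5.62, and of 5.28 without the keratin-rich libraries. The separation of *Cfi* between the genotypes, far wider than the range of *C3*, fixed this direction, so that the ratio restates the rise of *Cfi* and is given as a description. In WT, 0.25 *Cfi* normalized counts were found for each of *C3*, and in rd6 12.4, as geometric means. The ratio of *Cfb* to *C3* was -4.36 in WT and -5.08 in rd6 (exact permutation test over 924 splits, two-sided p = 0.0887, 0.118 adjusted over the 4 ratios computed), and *Cfb* stood at 1 to 6 reads in it, with the same limit.

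**Figure D3:**
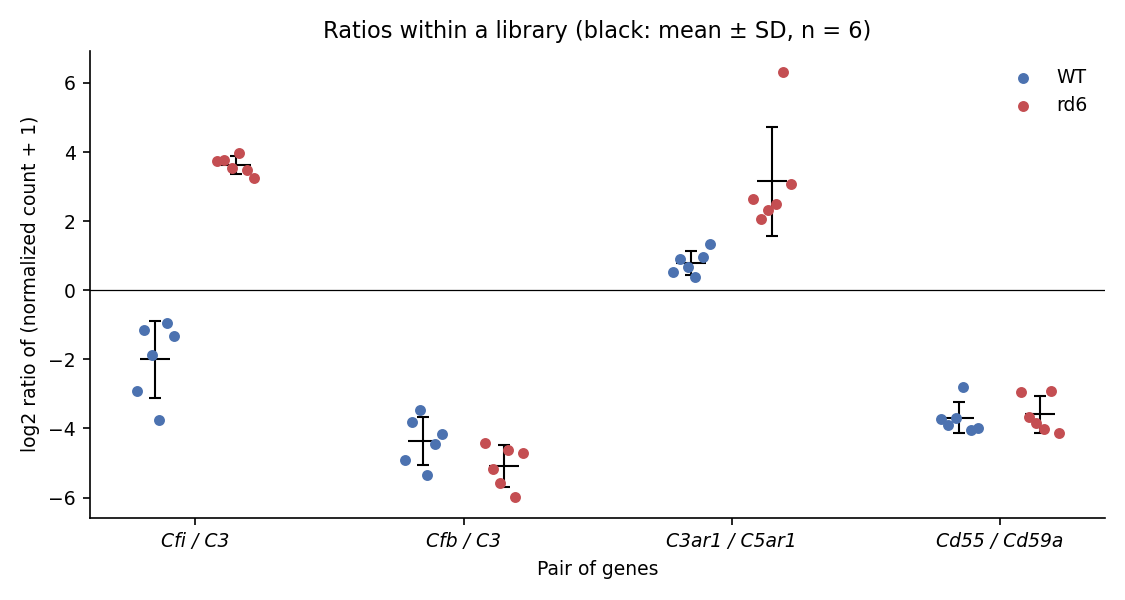
Log2 ratio of the normalized counts of 4 pairs of members (y axis) in each library, with points for the 6 WT and 6 rd6 libraries and black marks for the group mean ± SD. The *Cfi* to *C3* and *C3ar1* to *C5ar1* ratios of all 6 rd6 libraries lie above all 6 WT libraries, and the other ratios overlap.

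The membrane regulators did not follow *Cfi*. *Cd55* (decay-accelerating factor, ENSMUSG00000026399, chromosome 1, 130439027 to 130462744, - strand), which splits the convertases apart, ranged from 45.4 to 130.1 normalized counts in WT (5 of the 6 libraries at 72.6 or less), and had 53.7, 74.1 and 118.3 at the lowest, median and highest library in rd6. Both groups overlapped over most of their range (log2 fold change 0.26, 95% interval -0.37 to 0.89, limma q = 0.558). The 4 libraries with the highest *Cd55*, WT replicate 4 (130.1), rd6 replicate 5 (118.3), rd6 replicate 1 (116.3) and rd6 replicate 2 (92.8), were also the 4 with the highest summed keratins, in the same order. WT replicate 2, next in summed keratins (5131), had the lowest *Cd55* of all 12 libraries (45.4). Without the 3 richest in keratins the log2 fold change was 0.16 (limma q = 0.614). The part of epithelium in *Cd55* was not tested. *Cd55* shares 102 of its 4853 exon bases with a gene on the opposite strand.

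*Cd59a* (ENSMUSG00000032679, chromosome 2, 104095801 to 104115354, + strand), which encodes the inhibitor of the membrane attack complex, was the most abundant member in WT per length, at 36.4 TPM in WT and 39.5 in rd6, above 81.1% and 83.0% of the tested genes. It ranged from 687.4 to 986.5 normalized counts in WT (median 852.3) and from 811.2 to 1193 in rd6 (median 906.2). The groups overlapped, and the log2 fold change was 0.16 with a narrow 95% interval of -0.07 to 0.40 (limma q = 0.306), and it was 0.21 without the keratin-rich libraries (limma q = 0.281). Its paralog *Cd59b*, with which reads could be confused, was at 61.1 normalized counts in WT and 59.7 in rd6. The log2 ratio of *Cd55* to *Cd59a* was -3.69 in WT and -3.59 in rd6 (exact permutation p = 0.820, also after adjustment).

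**Figure D4:**
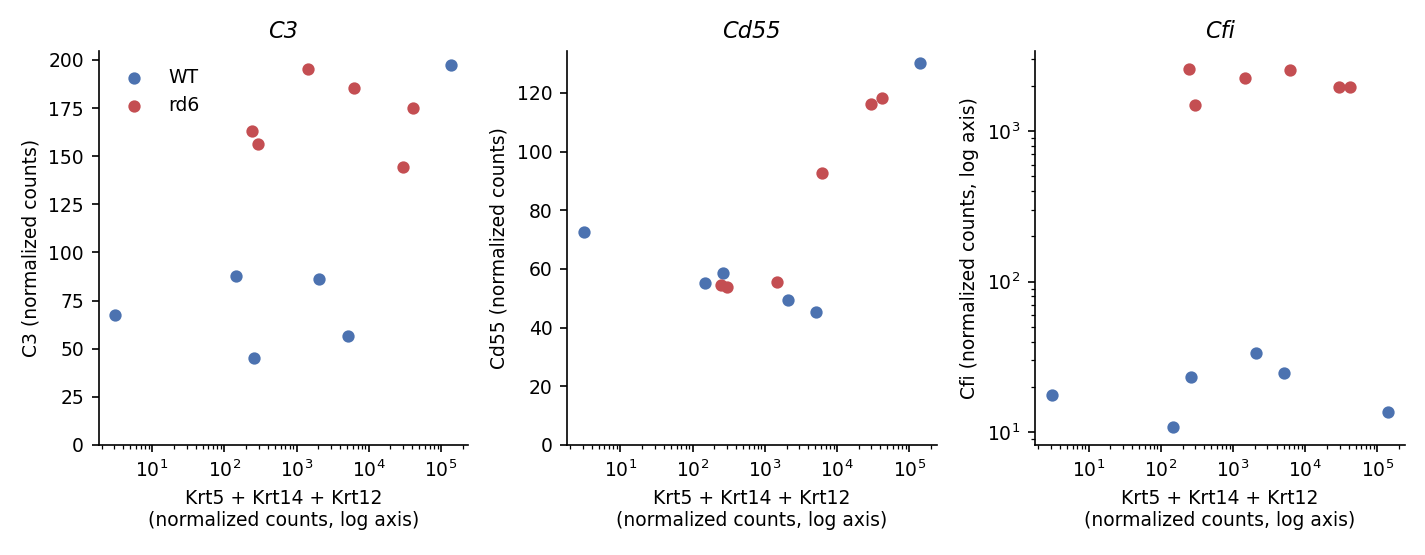
Normalized counts of *C3*, *Cd55* and *Cfi* (y axis, log scale for *Cfi*) against the summed normalized counts of *Krt5*, *Krt14* and *Krt12* (x axis, log scale), 1 point per library. *Cd55* is highest in the 4 libraries with the highest summed keratins, and *C3* in WT is highest in WT replicate 4.

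The anaphylatoxin receptors, both found on myeloid cells, differed in their change. *C3ar1* (ENSMUSG00000040552, chromosome 6, 122847138 to 122856161, - strand) had 18.7, 29.4 and 67.7 normalized counts at the lowest, median and highest WT library, against 107.5, 140.6 and 166.0 in rd6. No rd6 library reached down to the WT range, in which WT replicate 6 was the highest. The difference was 2.09 on the log2 scale (SE 0.24, limma q = 5.8e-05), and 2.15 without the keratin-rich libraries (limma q = 0.000584). *C5ar1* (ENSMUSG00000049130, chromosome 7, 16246743 to 16259540, - strand), the C5a receptor, had 11.4, 17.1 and 26.1 normalized counts at the lowest, median and highest WT library, and 0.90, 21.8 and 32.0 in rd6, where rd6 replicate 5 had 1 read. The log2 fold change was -0.26 with a wide 95% interval from -1.53 to 1.01 (limma q = 0.786), and it was 0.35 without rd6 replicate 5, so that its direction rests on that library. Without the keratin-rich libraries, of which that library is 1, it was 0.55 (limma q = 0.179). The same library held 51543 normalized counts summed over 8 rod markers, against 10703 to 16170 in the other rd6 libraries. WT replicates 2, 3 and 4 held 48515 to 55368, with *C5ar1* at 15.5, 11.4 and 24.3. The part of rod RNA in *C5ar1* was not tested.

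The log2 ratio of *C3ar1* to *C5ar1* averaged 0.80 (SD 0.34) over the WT and 3.15 (SD 1.59) over the rd6 libraries (n = 6 each), a difference of 2.35 (exact permutation p = 0.00216, the smallest possible, 0.00433 adjusted). The difference was 1.60 without the keratin-rich libraries. Without rd6 replicate 5 the difference was 1.72 (exact permutation p = 0.00216), and all other rd6 libraries were still above the WT libraries. The adjustment over the ratios also counts that of *Cfi* to *C3*, whose direction was fixed. *C3ar1* alone separated the groups and *C5ar1* did not pass the test, so that the *C3ar1* to *C5ar1* ratio largely restates the rise of *C3ar1*. Both genes were near 0.6 TPM in WT (0.62 and 0.56), and in rd6 they were at 2.43 and 0.58 TPM.

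The promoter of *C3ar1* is shown for comparison with that of *C3*. The window is chr6:122856158-122856407, - strand (RefSeq, GRCm38.p6), with capitals for a match to the NF-kB letters GGNNTTTCC, found on the reverse strand. It begins 14 bases before the start, and the letters are present in 5.82% of all promoters in the table. No match to the C/EBP letters, or to those searched for STAT (TTCNNNGAA), IRF (GAAANNGAA) or PU.1 (GAGGAAG), was in the *C3ar1* window, and *C3* had none for NF-kB, STAT, IRF or PU.1. The STAT, IRF and PU.1 letters occur in 8.30%, 8.56% and 13.6% of promoters. No 2 of these matches overlapped. Of the 9 members 7 have a promoter entry, and *Cfi* and *Cfb* have none. The IRF letters had a match in *Cd59a* and *C5ar1*, which did not pass the test, 187 and 66 bases before their starts.
C3ar1: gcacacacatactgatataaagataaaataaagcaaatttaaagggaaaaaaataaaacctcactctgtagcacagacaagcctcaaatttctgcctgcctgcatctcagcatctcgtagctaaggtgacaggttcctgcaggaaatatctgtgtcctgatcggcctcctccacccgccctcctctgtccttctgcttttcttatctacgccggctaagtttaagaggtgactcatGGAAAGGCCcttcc

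Markers of myeloid cells moved with the genotype. Of 18 microglia and macrophage markers, 17 were called higher in rd6 (median log2 fold change 2.89) and none was at 0. Of all tested genes 4.69% were called higher and 2.12% lower. *P2ry13*, at 7.5 normalized counts in WT and 213.8 in rd6, passed the filter only through rd6. All 18 summed to 16951 to 23288 normalized counts in WT and 31459 to 52645 in rd6. Without *Csf1r*, the most abundant of them in WT, the other 17 summed to 3001 to 5005 normalized counts in WT and 13922 to 31794 in rd6, a 6.58-fold difference, while *Csf1r* had 12921 to 18698 and 16200 to 20851. The neutrophil markers *Ly6g* and *Mpo* were at or below the floor in all libraries, but *S100a8* and *Csf3r* were called higher. *S100a8*, at 3.3 normalized counts in WT and 38.4 in rd6, passed the filter only through rd6. The neutrophil list summed to 21.0 to 150.5 in WT and 197.6 to 336.8 in rd6. Of the 5 hepatocyte markers, a cell type known for making *Cfi* and *C3*, 3 were at or below the floor. Only *Apoa2* was tested (log2 fold change 0.99, limma q = 0.0232). *Apoa2* passed the filter only through rd6, so that these values are a description. The 5 markers summed to 7.9 to 25.5 normalized counts in WT and 19.6 to 32.9 in rd6. Of the endothelial markers 3 of 6 were called higher, with sums of 4459 to 8507 and 7311 to 17078. Called lower were 1 of 10 RPE, 2 of 8 rod and 1 of 6 fibroblast markers, and none of the lymphocyte, mural and retinal glia markers tested was called. The part of these cells in the changes of *C3*, *Cfi* and *C3ar1* was not tested.

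Genes whose log2 values, apart from the difference between genotypes, varied most like those of the 3 members called higher were listed. Over the 12 libraries, with the genotype means removed, *C3* was nearest to *Chdh* (r = 0.91), *Ncapg2* (0.90) and *Arrdc2* (0.90). *Cfi* was nearest to *Tmem183a* (0.92), *Ywhag* (0.91) and *Trpm2* (0.89). *C3ar1* was nearest to *Ebi3* (0.94), *Ncf4* (0.92) and *Adgre1* (0.90). These genes share the libraries and their depth, and the values are a description. They are the highest among all tested genes, and 1 library may carry them. WT replicate 4 stood apart in *C3* and WT replicate 6 in *C3ar1*, and the lists were not made without them.

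The rest of the complement system gives the frame. Of 42 other complement genes listed, 36 had an entry and 22 passed the filter. Of these 22, 10 were called higher and 0 lower, where 4.69% and 2.12% of all tested genes were. At q alone 13 were higher and 1, *Vtn*, was lower (log2 fold change -0.42, limma q = 0.0175), against 11.4% and 11.6% of all tested genes. The median log2 fold change of the 22 was 0.80, and that of all tested genes was 0.0049. Genes of the classical and lectin pathways made up 7 of these 10, led by *C4b* (log2 fold change 4.36, limma q = 9.5e-09), *C1qa* (4.14, limma q = 4.2e-07) and *C4a* (3.90, limma q = 5.6e-07). *C4b* and *C4a* are near-identical paralogs, so that their reads are uncertain. *C2*, the classical counterpart of *Cfb*, went from 307.3 to 630.2 normalized counts (log2 fold change 1.04, limma q = 0.000351), and the readthrough gene spans part of it as well, so that its reads are uncertain.

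Of the terminal pathway only *C8g* was tested (log2 fold change 0.01), and *Hc*, which encodes C5, had at most 3 reads. None of the 8 other regulators tested was called. *Clu* (clusterin), an inhibitor of terminal complex formation, went from 203613 to 307480 normalized counts with no overlap (log2 fold change 0.60, limma q = 0.00316). Besides *C3ar1* and *C5ar1*, 3 other complement receptor genes were tested. All 3 were called higher, where 4.69% of all tested genes were, and in 5.77% every rd6 library exceeded every WT library. *Itgb2* (log2 fold change 2.65, limma q = 3.4e-06) and *Itgax* (2.48, limma q = 0.000181) did not overlap between the groups. *Itgam* did, with 6.2 to 307.9 normalized counts in WT, the highest in the keratin-rich WT replicate 4, and 109.9 to 396.4 in rd6 (2.59, SE 0.74, limma q = 0.0237). Without the 3 keratin-rich libraries it had 6.2 to 52.6 and 109.9 to 194.8 (2.89, limma q = 0.00192).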

How the data were processed

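RPE total RNA of 12 mice was sequenced from both ends after TruSeq Stranded library preparation. Alignment to mm10 and counting by the authors used Rsubread with standard parameters, and normalization used DESeq2. Versions and the strand setting of the counting are not given in the sources used here. For each gene and library the deposited value is a signal, the number of reads over the library's size factor. The authors also deposited, from their own DESeq2 run, a log2 fold change with its error, a Wald score and a p-value, none of which was used.

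All values were whole multiples of 1 read, so that reads per gene were recovered. The main test was limma 3.58.1 (R 4.3.3) with a mean-variance trend on log2(value + 1), over the 17768 genes that averaged 10 or more, with Benjamini-Hochberg adjustment over all of them and genotype as the only term. The added 1 understates the change of low genes. edgeR 4.0.16 and DESeq2 1.42.0 on the recovered reads, other pseudocounts, no filter, leaving out each library and a replicate block were alternatives. TPM used exon lengths of GENCODE M21, known for 28545 of 28591 genes. Ratios were tested by exact two-sided permutation. The fits were tested on simulated data.

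The members, gene lists, motifs and ratios were chosen with earlier results of these data known. The 5 other complement genes named with statistics as leaders of their lists are the largest called changes with separated groups, up to 3 per list. *C2*, *C8g*, *Hc*, *Clu*, *Itgam*, *Vtn*, *Cpn1*, *Cd59b*, the acute phase genes and the single markers were chosen after their values were seen. Replicates are different mice, as far as the labels tell, and p-values measure the spread between these samples.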

Additional observations from a re-analysis of the deposited data

Results flagged for a closer look

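Across 36 groups of 6 libraries, 7 had 1 library farther from the rest than Dixon's 95% limit allows, where chance gives such a library in about 1 in 20 groups. WT replicate 4, rich in keratins, was such a library in 4 of them. It had 197 normalized counts of *C3* (next 87.8), 130 of *Cd55* (next 72.6) and 1269 of *C4b* (next 694), and its log2 ratio of *Cd55* to *Cd59a* was -2.81 (next -3.70). WT replicate 6 had 67.7 of *C3ar1* (next 32.0) and rd6 replicate 2 had 1193 of *Cd59a* (next 952). In rd6 replicate 5 the log2 ratio of *C3ar1* to *C5ar1* was 6.32 (next 3.07), on 1 read of *C5ar1*.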

How the results depend on the processing

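Under 23 alternatives for genes, 3 members were called higher, except without rd6 replicate 4, when *Cfd* made 4 (log2 fold change 1.18, limma q = 0.0440). *Cfd* had passed the filter only through its rd6 mean. The number of members called lower was 0, except without the 3 keratin-rich libraries, an alternative chosen after seeing the data, when *Cfp* made it 1. *C3* (0.91 to 1.37), *Cfp* (-0.82 to -0.61), *Cfi* (6.15 to 6.85) and *C3ar1* (1.81 to 2.31) kept their direction and their side of q in all 23. *C3* came nearest to the threshold in q (0.0446). *C5ar1* turned to 0.081 with edgeR under TMM and under RLE scaling and to 0.084 with DESeq2, ranged from -0.48 to 0.35 with 1 library left out, and was 0.55 without the keratin-rich libraries, with limma q = 0.179 there. In the main test the direction of *C5ar1* rests on rd6 replicate 5, with 1 read, and its ratio of group means, rd6 over WT, was 1.07. Other complement genes called higher numbered 8 to 12 and lower 0.

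The log2 ratio of *Cfb* to *C3* differed by -0.87 with a pseudocount of 10 (exact permutation p = 0.0152) and by -0.92 to -0.54 with 1 library left out, of which without WT replicate 4 (-0.92) the exact permutation p was 0.0346. That of *Cd55* to *Cd59a* differed by -0.035 to 0.27 with 1 library left out and by -0.051 without the keratin-rich libraries. The ratio of *C3ar1* to *C5ar1* kept its call in all 16 alternatives, and the difference of *Cfi* to *C3* ranged from 5.17 to 5.84.

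Same-numbered WT and rd6 libraries did not deviate together (correlations -0.74 to 0.31), so that the numbers were not used as pairs. With the replicate block 3 members were called higher and 0 lower, 4 were past q, and 9 other complement genes were called higher. With the block, the difference of the *C3ar1* to *C5ar1* ratio had an exact permutation p of 0.0312, the smallest that 6 pairs allow, *Cfb* to *C3* 0.188 and *Cd55* to *Cd59a* 0.875. Low read numbers limit *Cfd* and *C5ar1*, with at most 32 and 31 reads in any library, and *Cfb*, with at most 6, for which depth and reads lost to the overlapping gene were not told apart.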

Other observations

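Few of the genes listed as acute phase proteins passed the filter. Their summed normalized counts averaged 18502 in WT and 107484 in rd6, most of it from *A2m*. Of 16 listed, 15 had an entry and 4 passed the filter, of which *A2m* and *Serpina3n* were called higher. Of all tested genes 4.69% were called higher, and in 5.77% every rd6 library exceeded every WT library. *A2m* (alpha-2-macroglobulin) went from 15105 to 94116 normalized counts (log2 fold change 2.64, limma q = 8.6e-11) and *Serpina3n* from 2077 to 12269 (3.18, limma q = 0.00177), both with no overlap between the groups. *Lcn2* (0.45, limma q = 0.660) and *Cp* (-0.03, limma q = 0.966) were not called. *Saa3* was below the filter, at 0.48 normalized counts in WT and 7.73 in rd6. Among other complement regulators *Cpn1*, which encodes the catalytic subunit of carboxypeptidase N, an enzyme that inactivates C3a and C5a, was at 49.9 and 88.3 normalized counts in WT and rd6 RPE (log2 fold change 0.77, limma q = 0.00865), a change under the 1.75-fold limit.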
